A study of Homo sapiens with 2 samples.

Results

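The genes described here are 10 transcription factor genes of blood stem and progenitor cells: GATA2, LMO2, LYL1, TAL1, FLI1, ERG, MECOM, HHEX, MEF2C and SOX4. Each was taken with every peak whose midpoint lay in its span on hg38 or within 50 kb of either end. This gave 8 of 7687 peaks in the list made with the antibody ab21061 and 8 of 7562 in the list made with sc8558, at 10 of 20037 protein-coding genes. The data are from ChIP-seq, the sequencing of DNA fragments pulled down with a protein, in NB4, a cell line from acute promyelocytic leukemia with the PML-RARA fusion. Both antibodies are labelled as raised against GFI1, with 1 library each, no treatment beyond fixation and no replicate. The antibody labels were followed, although 1 sample title (sc8558) has GFI2 and the pull-down protocol speaks of PML/RARα. The sequencing depth is not known and a control was not analysed here, so a gene without a peak is a gene without a region above the authors' threshold.

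GFI1 is a zinc-finger repressor that binds sites around an AATC core and brings histone-modifying corepressors to them. Several of the 10 genes encode proteins that work as a group in blood stem cells: TAL1 and LYL1 are helix-loop-helix factors, LMO2 is the bridge that joins them to GATA2, and FLI1 and ERG are ETS factors bound at many of the same enhancers. MECOM encodes the EVI1 stem cell factor, HHEX is a homeobox repressor, MEF2C a MADS-box factor and SOX4 an HMG-box factor of progenitors and leukemias. Maturing myeloid cells turn many of these genes down, and GFI1 is known for its part in that maturation.

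Peaks touched annotated starts of 3 members: SOX4, HHEX and MEF2C. The share of all genes with a peak over a start was not computed, so this count has no background. MEF2C has 7 annotated starts and was touched at 1 of them, by sc8558 alone. RefSeq promoter sequences (GRCh38.p14) were at hand for 8 of the 10 genes, and LMO2 and FLI1 were not among them. The 250 bases before each of these 3 starts are shown. They differ in how far the peaks reach and in whether the letters taken as the GFI1 core are present. SOX4, on the + strand at chr6:21593501-21593750, lay wholly under a peak of both lists, and its capitals mark matches to the motif AATCNNNGC, taken as the GFI1 core, on either strand. HHEX, on the + strand at chr10:92689705-92689954, was reached by the ab21061 peak alone, and its capitals mark the 105 bases under that peak. The MEF2C sequence, on the - strand at chr5:88827193-88827442, precedes an internal start and lay wholly under an sc8558 peak.
SOX4: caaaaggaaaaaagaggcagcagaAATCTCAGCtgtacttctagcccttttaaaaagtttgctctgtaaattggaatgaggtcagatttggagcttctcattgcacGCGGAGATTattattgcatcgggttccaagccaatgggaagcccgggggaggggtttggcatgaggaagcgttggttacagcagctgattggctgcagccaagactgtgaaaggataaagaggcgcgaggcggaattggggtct
HHEX: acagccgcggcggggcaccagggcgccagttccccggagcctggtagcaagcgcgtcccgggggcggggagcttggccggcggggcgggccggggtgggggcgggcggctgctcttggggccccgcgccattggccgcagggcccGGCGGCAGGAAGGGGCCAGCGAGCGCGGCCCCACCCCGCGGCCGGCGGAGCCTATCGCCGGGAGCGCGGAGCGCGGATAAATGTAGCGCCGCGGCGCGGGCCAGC
MEF2C: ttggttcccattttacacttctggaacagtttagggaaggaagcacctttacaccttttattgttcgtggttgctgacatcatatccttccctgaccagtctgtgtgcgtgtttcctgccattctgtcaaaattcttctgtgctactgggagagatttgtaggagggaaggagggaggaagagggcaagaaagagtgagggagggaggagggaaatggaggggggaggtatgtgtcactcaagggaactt

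Of the 8 genes with promoter sequences, only SOX4 held AATCNNNGC in a promoter window. N stands for any base, so these are matches to a loose pattern. Windows ran from 250 bases before to 50 after a start, and the 8 genes had 21 of them, of which 1 held AATCNNNGC. Among all 34943 promoter windows, some of which overlap because genes have several starts, 11.0% held the motif and 0.721% held it more than once. The SOX4 window held it at 2 places, 226 and 144 bases before the start, the second as the reverse complement. The HHEX and MEF2C windows under a peak held none, which says only that these letters are not in these windows.

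Motifs of the GATA, ETS and helix-loop-helix families, which include members, were also searched on both strands. So was that of RUNX factors, which are partners and not members. Motifs for HHEX, MEF2C, SOX4 and MECOM were not searched. AGATAA, the GATA motif, was in 5 of the 21 windows against 10.4% of all windows. These 5 windows belonged to TAL1, MECOM, LYL1 and ERG, whose last 2 overlap each other and share the match. GGAAGT, the ETS motif, was in 3 windows, all of MEF2C, against 22.8%. TGTGGT, the RUNX motif, was in 2 windows, of TAL1 and MECOM, against 13.1%, and the TAL1 window held it at 3 places. CAGNTG, an E-box, was in 11 of 21 against 49.97%. The SOX4 window held an E-box at 2 places, 221 and 63 bases before the start, and the first of these overlaps the GFI1 match that begins 226 bases before it. The shares were also read in the 353 windows lying wholly under a region found with both antibodies, as a description of all such windows and not of the members. AATCNNNGC was in 97 of these (27.5%), GGAAGT in 119 (33.7%), AGATAA in 47 (13.3%), TGTGGT in 41 (11.6%) and CAGNTG in 153 (43.3%). AATCNNNGC, GGAAGT and AGATAA were thus above their shares in all windows and TGTGGT and CAGNTG below. No interval was computed for these differences, and windows can overlap. Those of AGATAA and TGTGGT were small, and none of the differences is read as enrichment or depletion.

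Of the 10 genes, 6 had a peak within 50 kb and 4 had none. LMO2, LYL1, FLI1, HHEX, MEF2C and SOX4 each had a peak of both lists, and GATA2, TAL1, ERG and MECOM had no peak of either. The same window held an ab21061 peak for 31.7% of all protein-coding genes, an sc8558 peak for 32.4% and a peak of either for 38.3%. A shared region is a stretch where peaks of both lists overlap by at least 1 bp, and LMO2, LYL1, HHEX and SOX4 had 1 each. The background for a shared region was 24.3%, and 10 genes give the members' 4 of 10 little precision. With a score of at least 100 in both lists, the count was 3 (LMO2, HHEX and SOX4) against a background of 12.6%. With a window of 10 kb the members with a shared region were HHEX and SOX4, 2 of 10 against 12.8%, and with one of 100 kb ERG joined the 4, making 5 against 35.9%. Distances below run from the midpoint of a peak to the gene unless stated otherwise.

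**Figure D1:**
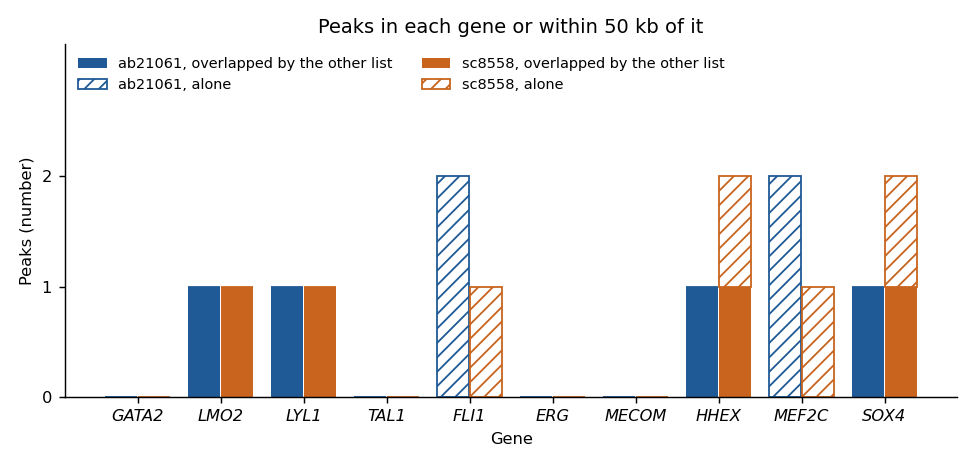
Number of peaks with a midpoint in each gene or within 50 kb of it. Filled bars are peaks overlapped by the other list and hatched bars are peaks found with 1 antibody; GATA2, TAL1, ERG and MECOM have no bar.

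SOX4, an HMG-box factor gene of progenitor cells, had the peaks with the highest scores of the 10 genes. The score is the peak caller's own value for each peak, and it is used to rank peaks within a list. The ab21061 peak ran from 21593025 to 21594110 on chromosome 6 and scored 451.49, higher than 96.6% of its list. The sc8558 peak ran from 21592622 to 21594225 and scored 620.96, higher than 98.4% of its list. Both covered the start of the gene: the first began 726 bp before it and ended 359 bp after, the second began 1129 bp before and ended 474 bp after. By the lesser of its 2 scores the shared region ranked 197th of 4853. The gene itself spans 21593751 to 21598619, and sc8558 alone gave a further peak over its later part, at 21597013 to 21597616. That peak scored 51.24, and 3.69% of the list scored lower.

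HHEX, a homeobox repressor gene of early blood and liver cells, was the other member with a shared region at its own start. The ab21061 peak lay at 92689850 to 92692340 on chromosome 10, scored 201.27 and was higher than 86.5% of its list. The sc8558 peak lay at 92690187 to 92692368, scored 140.83 and was higher than 77.9% of its list. The called edges of the 2 peaks differed at the promoter, between single libraries of unknown depth. The ab21061 peak began 105 bp before the start, whereas the sc8558 peak began 232 bp after it, and both ended about as far into the gene, at 2385 and 2413 bp after the start. They were also wide, at 2491 and 2182 bp, wider than 98.9% and 98.6% of the peaks in their lists, and covered the lower-coordinate part of a gene of 5.69 kb. A further sc8558 peak, alone, lay 8.94 kb before the start and scored 65.29.

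More peaks lay just beyond the window of HHEX. A pair of shared regions stood past its higher-coordinate end, 60.5 and 65.1 kb away, in a stretch with no annotated gene over their midpoints. The nearer scored 140.88 with ab21061 and 86.24 with sc8558, and the farther 141.24 and 139.84. On the other side, 96.6 kb away, an sc8558 peak alone covered the start of KIF11, a mitotic motor gene, with a score of 57.66. The annotated start nearest to the farther region was that of EXOC6, at 66.1 kb. Within 100 kb HHEX thus had 3 shared regions, more than any other member. At least 1 was found in that window for 35.9% of protein-coding genes, and the share with as many as HHEX was not computed.

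LMO2, the bridging factor gene of the stem cell complex, had a shared region outside the gene. It lay on chromosome 11 from 33930050 to 33931857, beyond the higher-coordinate end of a gene that spans 33858576 to 33892076, at 38.9 kb. The ab21061 peak scored 190.38, higher than 85.4% of its list, and the sc8558 peak scored 173.48, higher than 84.0%. No annotated gene lay over its midpoint, and the nearest annotated start, that of the noncoding LOC124902659, was 17.9 kb away. No peak of either list lay inside LMO2.

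The region counted for LYL1, a helix-loop-helix gene close to TAL1 in sequence, lay at other genes. It ran from 13116519 to 13117554 on chromosome 19, 14.2 kb past the end of LYL1 at which transcription starts. It covered the start of TRMT1, a gene of transfer RNA modification, and its midpoint lay in NACC1. The scores of 64.91 and 69.71 were low, with 30.7% and 37.2% of the lists scored lower. Counting a region only where the member is its nearest protein-coding gene left 3 members, LMO2, HHEX and SOX4, against a background of 13.2%.

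**Figure D2:**
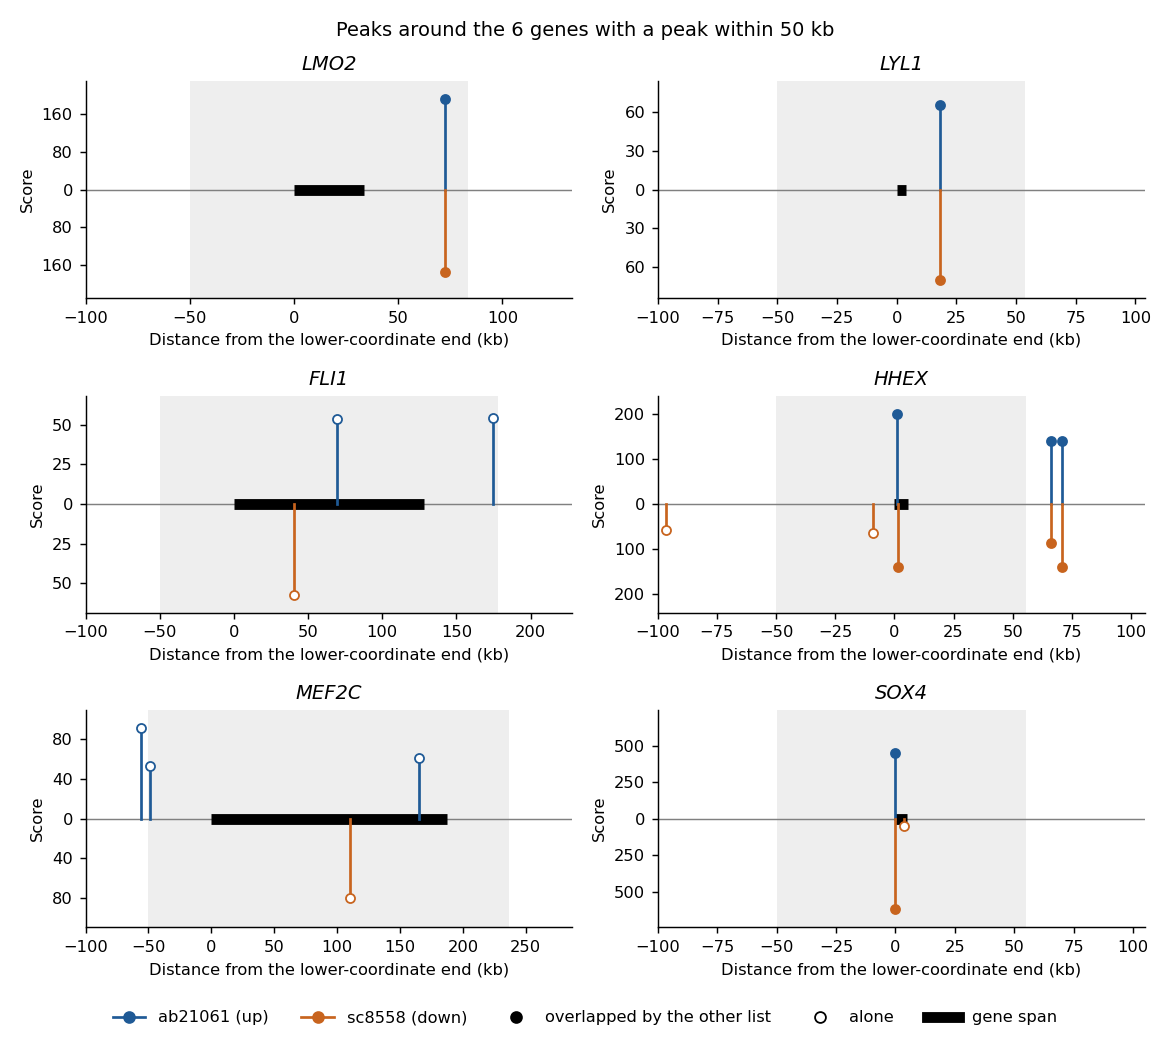
Peaks within 100 kb of the 6 genes that have a peak within 50 kb (shaded), with ab21061 scores drawn upward and sc8558 scores downward from 0 and a score axis that differs between panels. SOX4 and HHEX have peaks of both lists at the gene, LMO2 and LYL1 beside it, and FLI1 and MEF2C have peaks of 1 antibody at each place.

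FLI1, an ETS factor gene, had 3 peaks, none of them shared. Inside the gene, an sc8558 peak at 128725008 to 128725765 on chromosome 11 scored 57.05 and an ab21061 peak at 128754177 to 128754957 scored 53.72. Their nearest edges were 28.4 kb apart. The third, of ab21061, scored 54.25 and lay 46.9 kb beyond the gene, within KCNJ1, a potassium channel gene. All 3 scores were low for their lists, with 17.8, 10.3 and 11.5% of peaks scored lower, in the order named. The nearest shared region, in the neighbouring ETS1, was 202 kb from FLI1 and scored 192.85 and 188.04.

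MEF2C, a MADS-box factor gene, likewise had 3 peaks and no shared region. The sc8558 peak at 88827036 to 88827821 on chromosome 5 covered the internal start shown above and scored 80.09, with 48.6% of the list scored lower. An ab21061 peak inside the gene, at 88882180 to 88882777, scored 61.12 and had its midpoint 0.706 kb from another annotated start. The nearest edges of these 2 peaks were 54.4 kb apart. The remaining ab21061 peak scored 53.21 and lay 49.1 kb from the gene, within MIR9-2HG and 0.82 kb from the hairpin of MIR9-2. It was the member peak nearest to the limit of 50 kb, and the nearest one outside was also of ab21061 beside MEF2C, at 55.6 kb and a score of 91.02.

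A far stronger shared region lay beyond the window of MEF2C. It stood 389.7 kb past the higher-coordinate end of the gene, the side of its first start, on chromosome 5 from 89293207 to 89294484, and within the noncoding MEF2C-AS1. Its scores were 1026.67 and 892.61, and by the lesser of them it ranked 48th of 4853 shared regions. The nearest annotated start, that of LOC105379074, was 100.5 kb away, and 29.5% of protein-coding genes had their nearest shared region at least as far away as MEF2C. The region was singled out after its values were seen, as the nearest shared region of a gene without one in the window.

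**Figure D3:**
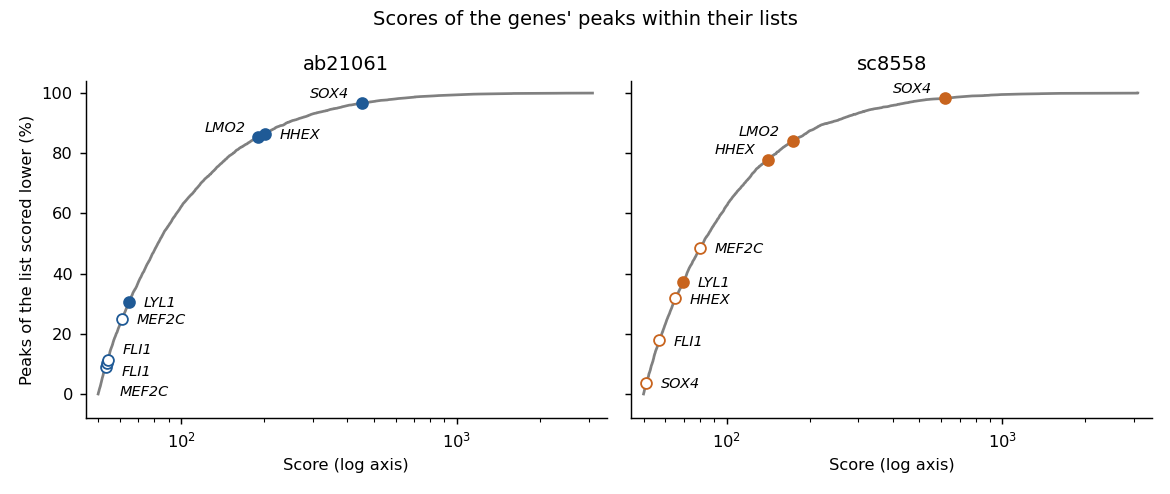
Score of each of the 16 peaks (x axis, log) against the percentage of its list scored lower (y axis); the grey line is the whole list, filled points are peaks overlapped by the other list and open points are peaks found with 1 antibody. Peaks at SOX4, HHEX and LMO2 that overlap lie in the upper part and the peaks alone lie at scores of 80.09 or less. The overlapped LYL1 peaks, at 64.91 and 69.71, lie among the peaks alone.

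Overlap among the 16 peaks went with score. All 3 ab21061 and all 3 sc8558 member peaks with a score of at least 100 were overlapped, against 91.6% and 93.5% of such peaks elsewhere. These were the same places in both lists, at LMO2, HHEX and SOX4, each peak being the partner of the other. Below 100, 1 of 5 was overlapped in each list, at LYL1 in both, against 46.8% and 48.0% elsewhere. In all, 4 of 8 peaks were overlapped in each list (50%, exact Clopper-Pearson 95% interval 15.7 to 84.3), against 63.7% and 65.1% elsewhere. The differences of -13.7 points (Newcombe 95% interval -42.2 to 14.8) and -15.1 points (-43.6 to 13.4) both had 0 in their intervals. These intervals cover counting error only, and no comparison between the antibodies has a replicate. Member peaks had median scores of 63.0 with ab21061 and 74.9 with sc8558, beside 82.4 and 81.7 over the whole lists.

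The windows of the 10 genes cover 2.27 Mb and held 3.53 peaks per Mb in each list, with an exact Poisson 95% interval of 1.52 to 6.95. Windows of all protein-coding genes together held 2.86 per Mb in both lists, inside that interval. The members' peaks were thus not denser than those near genes in general beyond counting error. The median window of the members, 124.8 kb, was close to that of all genes, 124.1 kb, but the members differed widely among themselves. The 2 longest windows, of MECOM at 680.2 kb and ERG at 394.5 kb, held no peak. Those of SOX4 and HHEX, at 104.9 and 105.7 kb, held 3 each over both lists. In each, 2 of the 3 were partners in 1 shared region and the other was a low-scoring sc8558 peak alone.

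The 4 genes without a peak differed in how far away the nearest region was. ERG, an ETS factor gene whose span of 294.5 kb on chromosome 21 includes a stem cell enhancer in an intron, had the closest. A shared region lay 77.4 kb past its lower-coordinate end, in KCNJ15, a potassium channel gene, and scored 178.1 and 80.0. For GATA2, the zinc-finger gene on chromosome 3, the nearest shared region lay 225.8 kb away near RAB7A and scored 69.39 and 81.32. For MECOM, also on chromosome 3, it lay 637.8 kb away in PRKCI and scored 61.14 and 66.76. For TAL1 on chromosome 1 the nearest shared region lay 1138 kb away, in PIK3R3, and scored 67.17 and 60, and the nearest peak of any kind was one of ab21061 at 634.2 kb.

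These distances were not all unusual for a gene. A nearest shared region at least as far was found for 69.1% of protein-coding genes in the case of ERG, 44.1% for GATA2, 18.4% for MECOM and 8.1% for TAL1. For genes with windows at least as long as that of MECOM, 112 of 232 (48.3%) had no peak of either list. For windows at least as long as that of ERG the share was 357 of 796 (44.8%). An empty window of this length was therefore common.

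**Figure D4:**
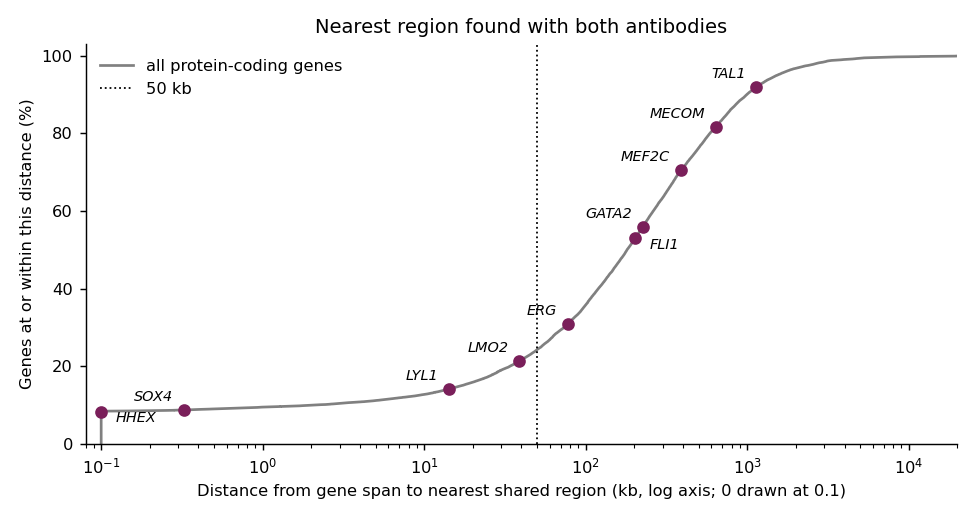
Distance from each gene to the nearest region found with both antibodies (x axis, log, kb) against the percentage of protein-coding genes at or within that distance (y axis, grey line). HHEX and SOX4 lie at or beside a region and TAL1 lies farthest, at 1138 kb.

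Other genes of the same network were read in the same window from 3 lists. Among 20 partners and cofactors, 5 had a shared region (25.0%, beside the background of 24.3%). RUNX1, a core-binding factor gene whose protein works with several members, had the highest scores, 726.25 and 672.47 inside the gene, followed by TCF12, an E-protein partner of TAL1, with 228.24 and 278.79 inside the gene. KDM1A, the LSD1 corepressor gene, had 114.85 and 121.16 at 16.8 kb from it. Among 24 other stem and progenitor regulators, 6 had one (25.0%), the highest inside MYB, 26.7 kb from GFI1B and inside IKZF1, where the lesser scores were 566.47, 263.94 and 225.27. Among 17 family relatives of the members, 7 had one (41.2%). The highest were inside ETS1, the relative beside FLI1, and at MEF2A and MEF2D, relatives of MEF2C. At MEF2A the scores were 179.27 and 196.56 inside the gene, and at MEF2D they were 132.96 and 223.22 at 24.1 kb from it. SOX4 scored between MYB and GFI1B by the lesser score.

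Genes were matched to SOX4 by the number of shared regions over the 2 libraries and by window length only, not by score. SOX4 was taken because it scored highest of the 4 members tied at 1 region. The nearest in window length with 1 shared region were CDIPT, TLNRD1 and C1orf232, all at 104.9 kb. Their regions scored 85.24 and 152.0, 102.48 and 91.04, and 53.68 and 152.26 with ab21061 and sc8558. All were below the 451.49 and 620.96 of SOX4, so the likeness does not extend to peak strength. Because SOX4 was picked by score and these genes were not, that difference is no result about SOX4. Each also had 1 sc8558 peak in its window where SOX4 had 2.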

How the data were processed

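Peaks were called per library, and per the submitters' processing notes Bowtie2 2.2.9, MACS 1.4.2 and hg38 were used. Options, read filters and the control: not given in the sources used here. Each peak has 1 deposited value, the authors' MACS score, which grows as the caller's p-value falls and was ranked within its own list only. Gene spans came from a RefSeq table of GRCh38.p14 with 20037 protein-coding genes, and starts and promoter sequences from a RefSeq table of the same build. Coordinates are counted from 1.

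From these, peaks with midpoints in the gene windows were counted, overlapping peaks were merged into shared regions, and exact motif matches were searched in promoter windows. With 1 library per antibody no p-value was computed. The counting was tested on simulated peaks. Alternatives were other windows, scores and overlap rules. Members and lists were chosen with earlier results of these data known. By rule, all 10 members were described with their shared regions and highest single-antibody peaks, and the 3 genes of each other list with the highest lesser score were named. Python 3.11.15 was used with pandas 2.3.3, scipy 1.17.1, statsmodels 0.14.6 and matplotlib 3.10.9.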

Additional observations from a re-analysis of the deposited data

How the results depend on the processing

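Of 37 values recomputed under other settings, 27 stayed within 1.5 times the count or within the interval of the share. That interval, 15.7 to 84.3%, is wide, so a share was called moved only after a large change. Overlapped peaks were counted in both lists though they lie at the same places, so the 37 values are not separate and the 27 is no measure of stability. With a window of 10 kb the peaks at these genes numbered 4 with ab21061, the overlapped peaks 2 in each list and the genes with a shared region 2 (HHEX and SOX4, against a background of 12.8%). With a window of 100 kb the overlapped peaks numbered 7 in each list. At a score of 100 or more the peaks numbered 3 in each list and 100% of them were overlapped. By construction, narrower windows and higher scores admit fewer peaks. Counting only peaks nearest to the member was chosen after seeing the data. No paired analysis was possible because each antibody has 1 library, and for the same reason none was left out. Unknown depth limits any reading of low-scoring peaks found with 1 antibody and of genes without a peak.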
